A study of Bos taurus with 16 samples.

Results

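The carbonic anhydrase locus of bovine chromosome 14 lies between 79200000 and 79900000 on the genome build UMD3.1. The deposited table lists 1017 separate regions of read coverage there, out of 2351373 in the whole genome. Every listed region that starts and ends inside these bounds was taken, whether annotated as exon (48 regions), as intron only (230) or as intergenic (739). The interval was picked because its coverage is among the strongest of the tissue, so the height of that coverage is described here without a test. At the bounds the coverage is sparse. The nearest regions inside and outside, at 79264730 and 79188729 on one side and at 79874986 and 79901356 on the other, each had reads in 1 library and a mean coverage of 0.046, 0.051, 0.036 and 0.036 per base in that order.

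Carbonic anhydrases are zinc enzymes that turn carbon dioxide and water into bicarbonate and a proton, and back. CA1, CA2, CA3 and CA13 encode cytosolic members of the family and lie together in mammalian genomes. The rumen epithelium takes up fermentation acids in exchange for bicarbonate, and carbonic anhydrase inside its cells provides that bicarbonate and the protons for sodium exchange.

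Papillae, the small projections that line the rumen wall, were clipped from 16 crossbred steers aged 344 ± 48 days, and the polyadenylated RNA of each animal gave 1 library of single reads of 50 bases. Animals had been chosen by their body weight gain and dry matter intake and received no treatment, and all were fed the same corn-based ration (57.35% corn) freely. The groups of 4 animals each are written HG-HI, HG-LI, LG-HI and LG-LI, for high (H) or low (L) gain (G) followed by high or low intake (I). The contrast of steers that differ in gain and intake is the question named by the title of the series, and the labels give no cut-off values for the quadrants.

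Values are mean read coverage per base, scaled to nearly the same total (591 to 596 Mb) in each library, so they can be compared between regions of different length. Depth was estimated at 11.9 to 21.2 M reads per library, and 1 read over its own length was worth 0.56 to 1.0. In 5 libraries the first exons of genes were thinly covered: replicate 3 of LG-LI, replicate 4 of HG-HI and replicates 2 to 4 of HG-LI. Their first-exon index, the median over 777 genes of the log2 ratio of exon 1 to later exons, was -5.35 to -3.73, against -2.49 to -1.06 in the other 11. The tissue label was checked with 11 genes of rumen epithelium. Of these, 10 were listed and 6 reached a mean of 100, with the keratin genes KRT6A at 2097 and KRT14 at 392 among them. The lowest of the 10 had a mean of 0.59, and KRT14 ran from 9.83 to 841 between libraries.

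The locus held a median of 1.43% of all coverage in a library, with a range from 0.822% to 2.75%. Without the mitochondrial genome in the total, the median was 1.65% (1.06% to 3.29%). The share was 1.38% to 2.75% in the 5 libraries thin in first exons and 0.822% to 1.83% in the other 11. Of the 1017 regions, 463 had reads in 1 library and 109 had reads in every library. A mean of at least 1 was reached by 109 regions and a mean of at least 100 by 7. In the whole table, 596 regions reached 100, 89 reached 500 and 22 reached 1000, of which 7, 6 and 3 lay in this interval.

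Coverage along the interval was concentrated in a pair of places. The stretch from 79531154 to 79753564, between CA1 and C14H8orf59, has no annotated gene in the file and held 77.4% to 82.6% of the coverage of the locus in each library (median 80.1%). CA1, whose product is a cytosolic enzyme less active than that of CA2, held 16.9% to 21.7% (median 19.4%). CA3 held at most 0.486%, LRRCC1 at most 0.354% and CA2 at most 0.0043%. By annotation over all libraries, intergenic regions held 80.8%, exon regions 18.7% and intron regions 0.533%.

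**Figure D1:**
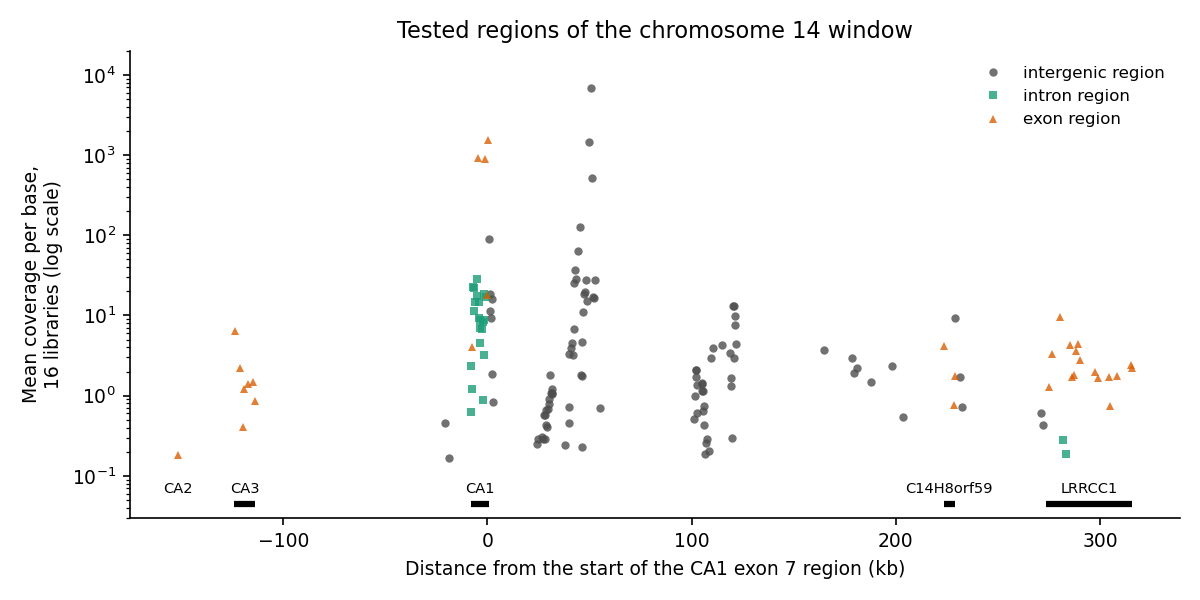
Mean coverage per base over 16 libraries (log scale) of the 154 regions with enough coverage to be tested, against their distance in kb from the start of the region that holds CA1 exon 7. Black bars span the tested regions of each annotated gene, and the highest point is the intergenic region with a mean of 6785.

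RefSeq's gene table for a later assembly, ARS-UCD2.0, was used for gene names and gene order only. It places 3 protein-coding genes, LOC784254, LOC100847874 and CA13, in that order between CA1 and RBIS, the present name of C14H8orf59. None of the 3 is annotated in the deposited file. E2F5, which encodes a transcription factor of the cell cycle, lies between RBIS and LRRCC1 in that table and is likewise not annotated in the file. Which of these genes, if any, each intergenic region belongs to was not tested, because coordinates cannot be moved between the builds.

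The strongest region was intergenic, at chr14:79580774-79581465 (692 bases). Its mean of 6785 was the second highest of all 2351373 regions, and within single libraries it ranked between 1 and 8. Coverage was 4679, 2777, 6061 and 15167 in the HG-HI animals and 7799, 10302, 6091 and 5825 in the HG-LI animals. It was 4227, 5072, 3769.8 and 3156 in the LG-HI animals and 5061, 6734, 15985 and 5853 in the LG-LI animals. Replicate 3 of LG-LI, replicate 4 of HG-HI and replicate 2 of HG-LI stood highest, all 3 among the libraries thin in first exons, and the LG-HI animals were low as a group. LG-HI and HG-LI did not overlap, and every other pair of groups did. Replicates 2 to 4 of HG-LI are thin in first exons and no library of LG-HI is. The share of all regions that separate these groups was not counted. This region took 0.323% to 1.86% of a library, an estimated 57471 to 273133 reads.

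The region just before it on the chromosome, chr14:79579408-79580750 (1343 bases), had a mean of 1461 and ranked 17 among all regions. Its values were 1169, 1046, 1546 and 1340.3 in HG-HI, 1855, 909, 1354 and 1849 in HG-LI, 1746 (replicate 1), 1773, 1231 and 1042 in LG-HI, and 1645, 2334, 780.1 and 1758 in LG-LI. All 4 groups overlapped, and replicate 3 of LG-LI, the highest library of the strongest region, was the lowest library here. The region just after, chr14:79581528-79582016 (489 bases), had a mean of 519.6 (297 to 1178).

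These 3 regions belong to a block of 24 intergenic regions with a mean of at least 1 and gaps under 1000 bases. The block spans 13247 bases, from 79570200 to 79583446, and its mean coverage over covered bases was 689 ± 265 (SD, n = 16, range 356 to 1266). Towards its start the regions were weaker: 36.6 at chr14:79573125-79573707, 63.6 at chr14:79574077-79575134 and 127 at chr14:79575270-79576363. The block therefore has its highest coverage near the end with the larger coordinates.

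CA1 itself was represented by 3 strong exon regions. The region of exon 7, the last exon, at chr14:79530407-79531089 (683 bases) had a mean of 1525 and ranked 14 of all regions. Its values were 1099, 733, 1426 and 3377 in HG-HI, 1689.8, 2151, 1195 and 1346 in HG-LI, 980.5, 1282, 923 and 645 in LG-HI, and 1113, 1567, 3606 and 1274 in LG-LI. The same 3 libraries as in the strongest region were highest, and all 4 groups overlapped.

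Exon 6 of CA1, at chr14:79529049-79529470, had a mean of 897 (320 to 1539) and exon 4, at chr14:79525578-79525838, a mean of 932 (149 to 1836). In both, replicate 3 of LG-LI held the lowest value. Exon 3 was covered at a mean of 4.0, and no region of the file is annotated as CA1 exon 1, 2 or 5. Between the exons, 19 intron regions with a mean of at least 1 made a block of 7396 bases, with a mean of 12.2 ± 6.24 (SD, n = 16). After the last exon, coverage went on in 6 intergenic regions over 1531 bases, the first of them at chr14:79531154-79531645 with a mean of 90.5.

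**Figure D2:**
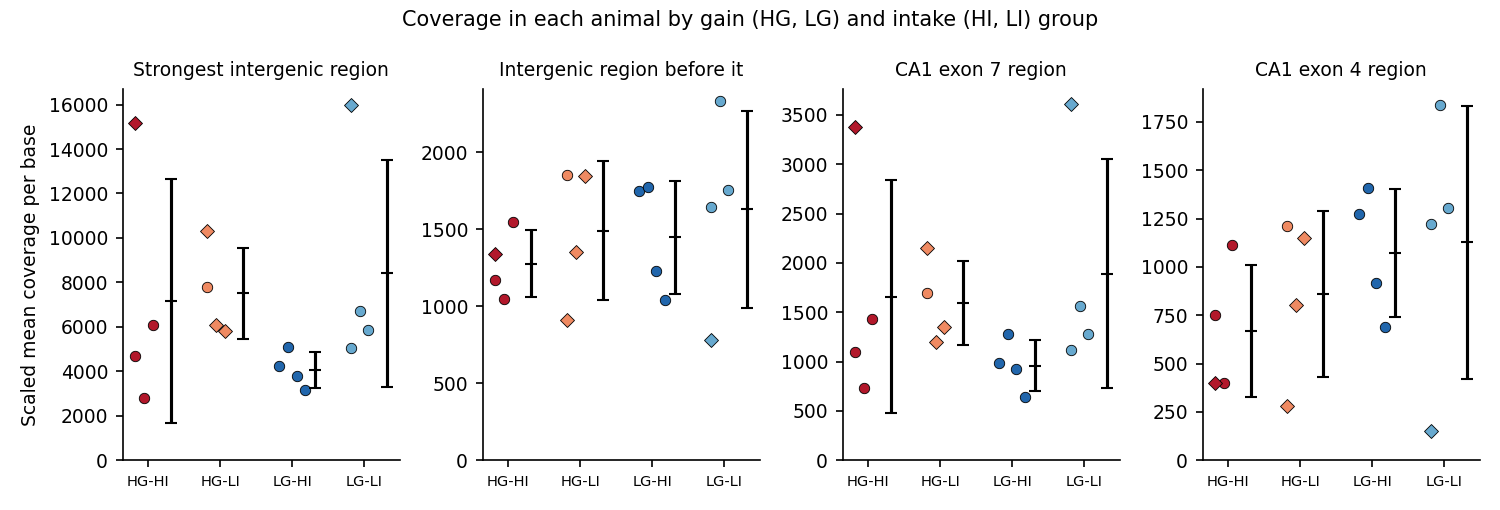
Coverage per base of 4 strong regions in each animal by group, with the group mean and SD beside the points; diamonds mark the 5 libraries thin in first exons. The strongest region and CA1 exon 7 share their 3 highest libraries, while replicate 3 of LG-LI is the lowest library in CA1 exon 4 at 149 and in the region before the strongest at 780.1.

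Coverage of the strongest intergenic region and of CA1 exon 7 moved together across animals. Coverage of the former was 3.79 to 5.10 times that of the latter in every library (mean 4.42 ± 0.34, SD, n = 16), while the regions themselves varied 5.76-fold and 5.59-fold between libraries. The ratio averaged 4.20 ± 0.29 in HG-HI, 4.71 ± 0.32 in HG-LI, 4.31 ± 0.41 in LG-HI and 4.47 ± 0.13 in LG-LI. All 4 groups overlapped in this ratio.

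Likeness was measured as the SD over 16 libraries of the log2 ratio of 2 regions, among the 596 regions with a mean of at least 100. CA1 exon 7 was the closest of 595 regions to the strongest region, with an SD of 0.11, and the next were the neighbouring region at 79581528 (0.28) and an intergenic region at 68987341 on the same chromosome (0.29). The median SD to all 595 was 1.07. An equally small SD to a partner at least 10000 bases away was found for 23 of the 596 regions. The strongest region and CA1 exon 7 are themselves among the 23. The median closest distant partner had an SD of 0.23. CA1 exon 6 was in turn closest to the region just before the strongest one (SD 0.19), with that region at 1.39 to 2.44 times the coverage of exon 6. That intergenic region was closer to an intron region of SLC16A7 on chromosome 5 (0.17) than to CA1 exon 6 (0.19). These are descriptions of 16 libraries and carry no test. Reads that match more than 1 copy of related genes could be counted at either place, the handling of such reads is not given in the sources used here, and its part in these ratios was not tested.

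**Figure D3:**
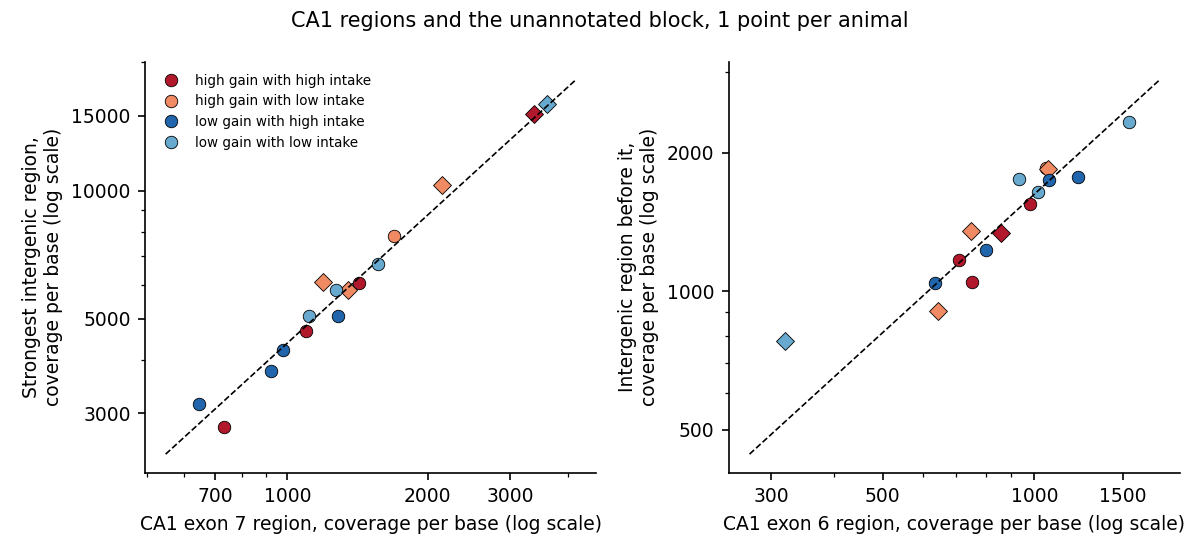
Coverage per base of the strongest intergenic region against CA1 exon 7 (left) and of the region before it against CA1 exon 6 (right) in 16 animals, both axes on log scales; the dashed line has the median ratio and diamonds are the 5 libraries thin in first exons. On the left all libraries lie between ratios of 3.79 and 5.10, and on the right between 1.39 and 2.44.

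In the same libraries, coverage lay more towards the last exon of CA1 and towards the end of the strongest block with the larger coordinates. The strongest region stood at 2.42 to 4.20 times the region before it in the 11 libraries with better covered first exons. In the thin 5 libraries that ratio was 20.5 in replicate 3 of LG-LI, 11.3 in replicate 4 of HG-HI, 11.3 in replicate 2 of HG-LI, 4.50 in replicate 3 of HG-LI and 3.15 in replicate 4 of HG-LI. The last of these lies inside the range of the 11. In CA1 the same 3 libraries were highest. Its exon 7 stood at 0.770 to 1.83 times exon 4 in the 11 libraries, and in the 5 the ratio was 24.2, 8.46, 7.74, 1.49 and 1.17 in the same order of libraries. CA1 exon 7 over exon 6 ran from 0.919 to 1.60 in the 11 and from 1.26 to 11.3 in the 5. The mean coverage of CA1 intron regions was 8.97 to 25.2 in the 5 and 4.75 to 14.2 in the 11.

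**Figure D4:**
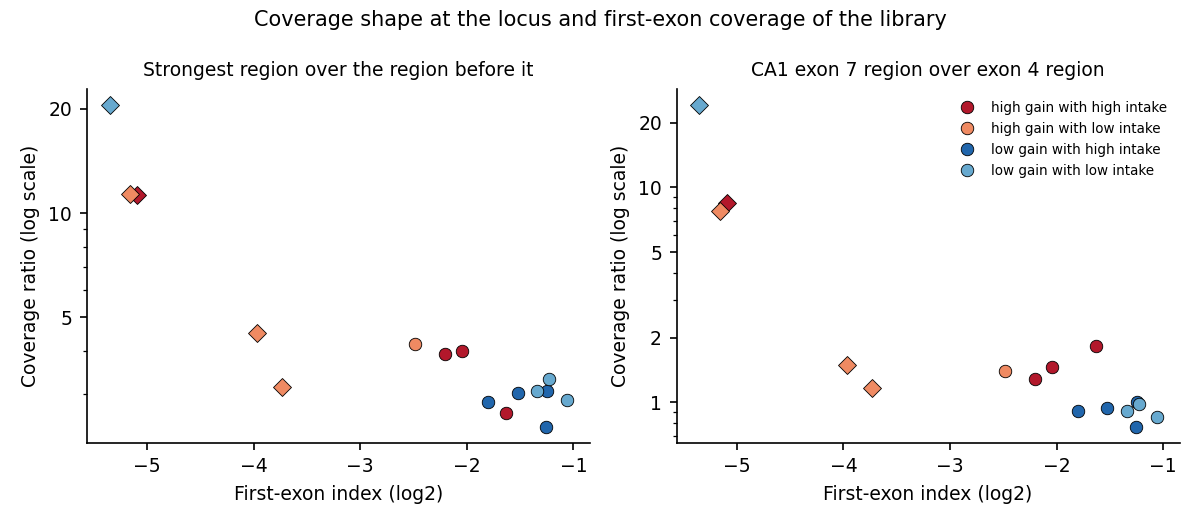
Ratio of the strongest region to the region before it (left) and of CA1 exon 7 to exon 4 (right), on log scales, against the first-exon index of the library (log2), 1 point per animal. The 3 libraries with the lowest index hold the highest ratios in both plots, up to 20.5 and 24.2.

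Farther along, a second intergenic block of 12 regions spanned 13270 bases from 79638915 to 79652184. It contains 1 region of 8096 bases (79641043 to 79649138, mean 4.24) and peaks at a mean of 13.1 near its end. The mean over the block was 4.88 ± 2.61 (SD, n = 16). Smaller blocks lay at 79560842 (5 regions, mean 1.38), 79632322 (4 regions, 1.94), 79635303 (4 regions, 1.30) and 79709087 (2 regions, 2.59).

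The other annotated genes of the interval were weakly covered in papillae. CA3 encodes a cytosolic enzyme best known from skeletal muscle. Its best region, exon 7 at chr14:79406486-79407536, was at 10.4 (replicate 1), 12.0, 19.8 and 1.62 in HG-HI and at 1.37, 0.84, 0.19 and 6.65 in HG-LI. It was at 2.62, 28.4, 0.19 and 2.18 in LG-HI and at 0.68, 10.96, 3.02 and 0.54 in LG-LI. CA3 thus varied 149.6-fold between animals, with high and low libraries in each intake class. Summed levels of 9 skeletal muscle genes, among them CKM and ACTA1, were 0.87 to 6.04 in HG-HI, 3.6 to 6.46 in HG-LI, 3.84 to 6.23 in LG-HI and 5.91 to 10.9 in LG-LI. CA3 averaged 10.96 ± 7.44 in HG-HI, 2.26 ± 2.96 in HG-LI, 8.36 ± 13.4 in LG-HI and 3.80 ± 4.91 in LG-LI (SD, n = 4 each). The part of muscle RNA in the CA3 levels was not tested.

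CA2, which encodes the fast cytosolic enzyme, had its best region in exon 6 at a mean of 0.227 (0 to 0.99) and had too little coverage there to be tested, while 1 other CA2 exon region was tested and did not pass for gain, intake or their interaction. LOC100196897 was listed at 0 in 12 of 16 libraries and reached 0.38. C14H8orf59 was at 4.19 (2.19 to 6.63). LRRCC1, which encodes a centrosomal protein, was at 9.47 (3.97 to 23.0) in its region of exons 16 and 17. Red blood cells also hold much CA1. Of 9 genes of that lineage, 5 were listed and their summed level was 0 to 1.68 in any library, against 645 to 3606 for CA1. The highest of the 5 had a mean of 0.54 and was at 0 in 1 library, and the beta globin gene HBB was at 0 in 14 of 16. The part of red blood cell RNA in the CA1 level was not tested.

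**Figure D5:**
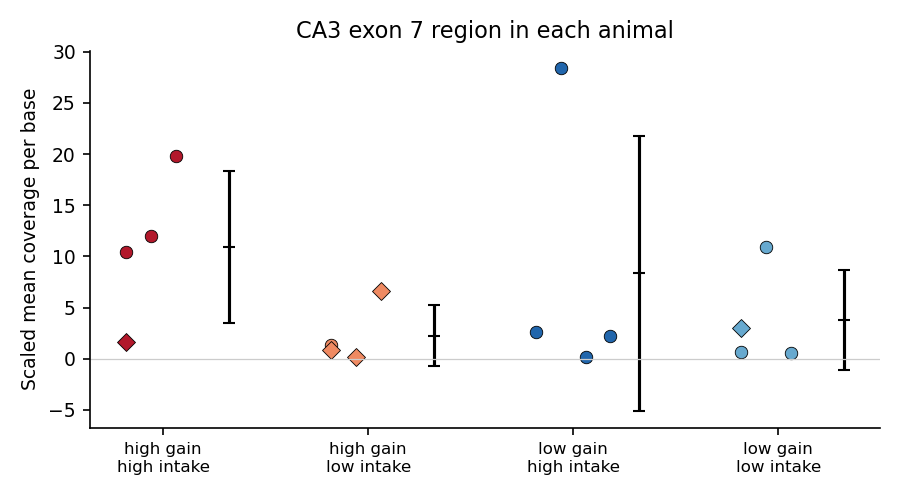
Coverage per base of CA3 exon 7 in each animal by group, with the group mean and SD beside the points; diamonds mark the 5 libraries thin in first exons. Values run from 0.19 to 28.4, and every group holds an animal under 2.

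For the comparisons, log2(value + 0.1) was fitted with limma on all 124471 regions of the genome that had at least 0.5 in at least 4 libraries. Of the 1017 regions of the locus, 154 entered (32 exon, 23 intron and 99 intergenic) and 863 did not, so the counts do not cover all of them. Fold changes are on this scale and understate the change of low regions. P-values measure the spread between animals, and p was adjusted by the Benjamini-Hochberg method over all regions tested. In bulk tissue, fewer cells of a type and less RNA per cell cannot be told apart.

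High gain (8 animals) was compared with low gain (8). Coverage of the strongest region was 7338 ± 3848 in high-gain and 6232 ± 4102 in low-gain animals (SD, n = 8 each; log2 0.26, SE 0.31, limma adjusted p = 0.826). The region before it averaged 1383 ± 349 and 1539 ± 494 (-0.12, SE 0.23, adjusted p = 0.896). CA1 exon 7 averaged 1627 ± 822 and 1424 ± 924 (0.24, SE 0.31, adjusted p = 0.839). The other strong exon regions of CA1 had negative estimates. Exon 4 was at -0.45 (SE 0.47, limma adjusted p = 0.799) and exon 6 at -0.04 (SE 0.27, adjusted p = 0.976). In exon 4, 8 of 8 high-gain animals lay below the low-gain median. These differences were smaller than the spread between animals, and the groups overlapped in each region. With 1 library left out, the gain estimate ran from 0.03 (without replicate 4 of HG-HI) to 0.44 in the strongest region and from 0.03 (without the same library) to 0.42 in CA1 exon 7, and none passed. High gain holds 4 of the 5 libraries thin in first exons, in which the locus took 2.05 ± 0.649% of a library, against 1.30 ± 0.344% in the other 11. The summed level of 6 smooth muscle genes was 2.1 to 37.9 in HG-HI, 4.67 to 18.8 in HG-LI, 33.0 to 42.4 in LG-HI and 3.25 to 96.8 in LG-LI. All 6 had negative gain estimates (median log2 -1.66), 3 of them with limma unadjusted p under 0.05 and 0 called. The summed level of 6 endothelial genes was at most 15.6 in HG-HI and 17.8 in HG-LI, and at least 18.03 in LG-HI and 20.6 in LG-LI. The 6 endothelial genes also had negative gain estimates (median -0.50), 3 with limma unadjusted p under 0.05 and 0 called. Of all genes tested, 53.9% had negative gain estimates and 5.32% had such a p. The part of thin libraries and of these cell types in the gain result was not tested.

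In all, 0 of 154 regions of the locus passed for gain with limma (smallest adjusted p = 0.449), against 0.0% of the 124471 regions tested. Before adjustment 2 had p under 0.05, both higher at high gain, which is 1.30% of the 154. Of all regions, 9.8% had such a p and 1.27% were higher with such a p. With both limma options (trend, robust) switched off, the locus had 0 after and 3 before adjustment. The median log2 difference was 0.22 over the 154 regions, with 108 positive, and -0.11 over all regions tested. The smallest p belonged to an intergenic region at 79637089 (mean 0.19, listed at 0 in 12 libraries), a CA1 intron region at 79522274 and an intergenic region at 79570090 (mean 0.45, at 0 in 7 libraries). The CA1 intron region averaged 2.85 ± 1.17 in high-gain and 1.85 ± 2.19 in low-gain animals (log2 0.99, SE 0.45, adjusted p = 0.493), higher than the low-gain median in 7 of 8 animals. Its highest value, 7.07, was in replicate 3 of LG-LI. Without that library it passed (log2 1.30, limma adjusted p = 0.0475, 8.39% of all regions called). In that fit 29 of the 154 (18.8%) had limma unadjusted p under 0.05, against 27.9% of all regions. Of the 29, 28 were higher and 1 was lower at high gain. The higher ones were 18.2% of the 154, against 3.65% of all regions. For lower regions the shares were 0.649% against 24.3%. Counts of neighbouring regions are not counts of independent changes. The median was then 0.37 in the locus and -0.17 over all regions. When the model held the first-exon index, the medians were -0.18 and -0.01. In that model 8 of the 154 had limma unadjusted p under 0.05, 1 higher and 7 lower. This is 5.19%, against 12.8% of all regions. For lower regions alone the shares were 4.55% against 4.64%. Without the 5 thin libraries, which leaves replicate 1 alone in HG-LI, the medians were 0.24 and -0.11, so the 2 ways of handling thin libraries differed in direction.

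High intake (8 animals) was compared with low intake (8). Strong regions of the unannotated stretch and CA1 exon 7 had lower estimates at high intake, and CA3 regions higher ones, and no region passed the test. Coverage of the strongest region was 5614 ± 4001 in high-intake and 7956 ± 3632 in low-intake animals (log2 -0.61, SE 0.31, limma adjusted p = 0.659). It lay below the low-intake median in 7 of 8 high-intake animals. CA1 exon 7 averaged 1308 ± 876 and 1743 ± 823 (-0.50, SE 0.31, adjusted p = 0.659), also with 7 of 8 below. The other strong exon regions of CA1 did not share this. Exon 4 was at 0.02 (SE 0.47, limma adjusted p = 0.991) and exon 6 at 0.03 (SE 0.27, adjusted p = 0.973). The region before the strongest averaged 1362 ± 295 and 1560.3 ± 519.7 (-0.14, SE 0.23, adjusted p = 0.797). With 1 library left out, the intake estimate ran from -0.84 to -0.43 in the strongest region, from -0.71 to -0.32 in CA1 exon 7 and from -0.30 to -0.04 in the region before the strongest, and none passed.

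For intake, 0 of 154 regions passed with limma (smallest adjusted p = 0.658), against 0.0% of all regions tested. Before adjustment 23 had p under 0.05, 6 higher and 17 lower at high intake. This is 14.9% of the 154, against 6.45% of all regions. For lower regions the shares were 11.04% against 3.62%, and 2.82% of all regions were higher. With both limma options switched off, the counts in the locus were again 0 and 23. The median log2 difference was -0.38 in the locus and 0.05 over all regions. Scaling each library by the median of well covered genes moved these medians to -0.17 and 0.24 and the split before adjustment to 8 higher and 8 lower. Each is 5.19% of the 154, against 4.54% of all regions higher and 2.07% lower under that scaling. Neighbouring regions share transcripts and libraries, so these counts are not counts of independent changes.

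The 17 lower regions lay in the unannotated stretch after CA1 (15) and between CA3 and CA1 (2). In the block of the strongest region all 24 estimates were negative for intake (median -0.57), 5 of them with unadjusted p under 0.05. In the second block 11 of 12 were negative (median -0.93), 6 with unadjusted p under 0.05. Of all regions tested, 46.7% had negative intake estimates and 3.62% were lower with such a p. The smallest p was that of the first region of the strongest block, chr14:79570200-79570296 (97 bases). It was at 1.14, 0.88, 1.81 and 4.0 in HG-HI, 4.41, 6.85, 4.72 and 4.36 in HG-LI, 3.06, 0.38, 1.23 and 0.78 in LG-HI, and 3.47, 4.95, 7.77 and 2.94 in LG-LI. All 8 high-intake animals lay below the low-intake median, and the intake classes overlapped through replicate 4 of HG-HI and replicate 1 of LG-HI. Means were 1.66 ± 1.25 in high-intake and 4.93 ± 1.62 in low-intake animals (log2 -1.76, SE 0.39, limma unadjusted p = 0.000385, adjusted p = 0.658).

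The next were an intergenic region of the second block, chr14:79651675-79651819, at 4.66 ± 2.22 and 10.6 ± 4.69 (-1.17, SE 0.37, limma adjusted p = 0.659), and another of the strongest block, chr14:79576923-79577019, at 7.22 ± 4.61 and 14.9 ± 9.29 (-1.06, SE 0.35, adjusted p = 0.659). In the first of these regions 8 of 8 and in the second 7 of 8 high-intake animals lay below the low-intake median. Low intake holds 4 of the 5 libraries thin in first exons, and in the regions at 79570200, 79651675 and 79576923 the thin libraries averaged 5.54 ± 1.67, 12.1 ± 4.62 and 19.1 ± 9.88, against 2.28 ± 1.57, 5.59 ± 3.13 and 7.41 ± 3.58 in the other 11. Without the thin libraries, which leaves replicate 1 alone in HG-LI, the median intake difference was -0.40 in the locus and -0.11 over all regions. When the model held the first-exon index, 10 regions of the locus had limma unadjusted p under 0.05 (2 higher, 8 lower). This share of 6.49% was near the 6.29% of all regions. With 1 library left out there were 10 to 38, and none passed after adjustment in any of these fits. Without replicate 4 of HG-HI the count of 38 was 24.7% of the locus, against 17.6% of all regions. Without replicate 2 of HG-LI or replicate 3 of LG-LI the count of 10 was 6.49%, against 4.11% and 4.68% of all regions. It was 14, 14 and 13 without replicates 1, 2 and 3 of HG-HI (9.09%, 9.09% and 8.44%), against 4.35%, 4.46% and 5.61% of all regions.

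Some markers of endothelium also differed by intake before adjustment. Estimates of KDR, TEK, PECAM1 and CDH5, genes of endothelial receptors and junctions, were negative at high intake with limma unadjusted p under 0.05. The remaining members, 2 of the 6, had positive estimates (log2 2.33 and 0.72). With limma, 0 of the 6 endothelial genes were called (smallest adjusted p = 0.529, median log2 -0.52). Of all genes tested, 8.28% had unadjusted p under 0.05 for intake. The summed level of the 6 was 8.13 to 15.6 in HG-HI, 8.56 to 17.8 in HG-LI, 18.03 to 24.3 in LG-HI and 20.6 to 27.0 in LG-LI. These sums overlapped between the intake classes. In both high-gain groups they lay below those of both low-gain groups. Leukocyte genes had a median intake estimate of 0.71 over 4 tested, 1 with unadjusted p under 0.05 and 0 called. The part of these cell types in the intake result was not tested.

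CA3 averaged 9.65 ± 10.1 in high-intake and 3.03 ± 3.84 in low-intake animals in its exon 7 region (log2 1.53, SE 0.96, limma adjusted p = 0.529 among genes), with 7 of 8 high-intake animals above the low-intake median. With 1 library left out the estimate ran from 0.96, without replicate 2 of LG-HI, to 2.06. CA3 averaged 2.46 ± 2.57 in the 5 libraries thin in first exons, of which low intake holds 4, and 8.11 ± 9.29 in the other 11, and the part of this in the intake estimate was not tested. The 7 tested exon regions of CA3 all had positive estimates (median 2.09), 5 of them with unadjusted p under 0.05. Of all regions tested, 53.3% had positive intake estimates and 2.82% were higher with such a p. The remaining higher region with unadjusted p under 0.05, at 79761894, lies between C14H8orf59 and LRRCC1.

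The gain difference at high intake minus that at low intake gave 0 of 154 regions of the locus with limma (smallest adjusted p = 1.00), against 0.0% of all regions. Before adjustment 5 had p under 0.05, which is 3.25% against 1.76% of all regions, and the counts with both limma options switched off were 0 and 4. The 3 with the smallest p were a CA1 intron region at 79522221 (mean 0.63), an intergenic region at 79650152 (0.30) and an intergenic region at 79561809 (1.09), which were listed at 0 in 7, 12 and 2 libraries. The strongest region had an estimate of 0.60 (SE 0.62) and CA1 exon 7 one of 0.71 (SE 0.61). With 1 library left out they ran from 0.14 to 0.96 and from 0.28 to 1.02. Both were lowest without replicate 4 of HG-HI and second lowest, at 0.23 and 0.34, without replicate 3 of LG-LI.

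Fitted as genes, CA1, CA3, C14H8orf59 and LRRCC1 were among 9466 tested, and 0 of these 4 were called for gain, intake or their interaction, against 0.0% of all genes for each. Before adjustment, 504, 784 and 50 of all genes had p under 0.05 in that order (5.32%, 8.28% and 0.528%) and 0 of the 4. Of 15 carbonic anhydrase genes looked for in the whole file, 11 were listed and 6 tested. CA1 was the 1 member above 100, followed by CA3 at 6.34 and CA4, which encodes a membrane-bound form, at 2.32. None of the 6 was called, and 2 had unadjusted p under 0.05 for intake. The median intake difference was -0.33 over the 6 and -0.01 over all genes.

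Genes that move bicarbonate, protons, acids and chloride were taken as a list of 27, of which 20 were listed and 15 tested. Among its highest were BSG, which encodes a chaperone of monocarboxylate carriers, at 132 and the monocarboxylate carrier gene SLC16A1 at 109, both well under CA1. None was called for intake (limma), 5 had unadjusted p under 0.05, and the median difference was 0.30. Of all genes tested, 8.28% had such a p. Of 18 genes that neighbour the carbonic anhydrase cluster in mammals, 10 were listed and 7 tested, with CPNE3 at 19.2 the highest after CA1 and 0 called.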

How the data were processed

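Total papilla RNA of 16 steers was sequenced after poly(A) selection, 1 library per animal. The build UMD3.1 and TopHat2 2.08b were used, per the submitters' processing notes. Aligner settings, annotation release and coverage tool were not given in the sources used here. Signal values, as deposited, are mean read coverage per base of each listed region, scaled per library by the authors. Columns were matched to animals by the number in each title, and replicates are numbered in accession order.

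Log2(value + 0.1) of regions with at least 0.5 in at least 4 libraries was fitted on 4 group means in R 4.3.3 with limma 3.58.1 (empirical Bayes, trend and robust), two-sided, threshold 0.05 after Benjamini-Hochberg adjustment. Genes took the level of their best covered exon region. The script was checked on simulated data. The interval and the gene lists were chosen with earlier results of these data known. Regions named were the best exon region per gene, the 10 strongest, the 6 intergenic and 4 intron regions with the highest mean, and per contrast the 3 with the smallest p; other regions are given where a count or block needed them. Alternatives covered pseudocounts 0.5 and 1, filters, scaling, limma options, first-exon coverage and leaving out libraries. Marker lists for smooth muscle, endothelium and leukocytes were summed too: their levels ran from 2.08 to 96.8, 8.13 to 27.0 and 9.14 to 35.5 over libraries, and their differences stand beside the gain and intake results. Certain list members are not reported here, although the list counts include them.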

Additional observations from a re-analysis of the deposited data

Results flagged for a closer look

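In each group of 4 animals the value farthest from the rest was compared with the group's range for 15 measures of the locus, 60 groups in all. For independent values with a normal spread this rule picks about 1 in 20 groups, and here 11 stood apart. The measures share regions and libraries, so the 11 are not independent and were not tested against chance. CA3 exon 7 was at 28.4 in replicate 2 of LG-HI, against 0.19 to 2.62 in the other 3 animals. The strongest intergenic region was at 15985 in replicate 3 of LG-LI, against 5061 to 6734. The region at 79575270, in the same block, was lowest in that library at 68.5, against 169 to 188, and LRRCC1 was highest there at 23.0, against 5.50 to 7.92. The region at 79581528 was at 1178 in replicate 4 of HG-HI, against 337 to 434.

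The other 6 were ratios of coverage along a transcribed stretch. The strongest region over the region before it was 11.3 in replicate 4 of HG-HI (2.66 to 4.003 in the rest of its group), 11.3 in replicate 2 of HG-LI (3.15 to 4.50) and 20.5 in replicate 3 of LG-LI (2.89 to 3.33). CA1 exon 7 over exon 4 was 8.46 (1.28 to 1.83), 7.74 (1.17 to 1.49) and 24.2 (0.853 to 0.977) in the same 3 libraries. All 3 are among the libraries thin in first exons.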

How the results depend on the processing

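No paired analysis was possible because replicate numbers here follow accession order only and pair no animals. Under alternatives other than leaving out 1 library, 91 counts of calls and shares of the locus stayed within 1.5 times the reported value or within the spread, and 6 did not. Without its trend and robust options limma called 9 regions of the genome for gain, 8 for intake and 8 for the interaction. Without the 5 libraries thin in first exons it called 1174 regions and 64 genes for gain, and with the first-exon index as a covariate 607 genes. With 1 library left out, the calls for gain were 0 to 10445 regions and 0 to 71 genes (both highest without replicate 3 of LG-LI) and 0 to 1 in the locus, and for intake 0 to 9 regions and 0 to 1 genes (both highest without replicate 4 of HG-HI). Estimates of named regions kept their sign in 133 such values and turned in 6. The gain estimate turned with the first-exon index in the strongest region (-0.32), in the region before it (0.17) and in CA1 exon 7 (-0.31). The interaction turned without the 5 thin libraries in the strongest region (-0.32) and CA1 exon 7 (-0.20), a fit in which HG-LI is replicate 1 alone. The intake estimate of the region before the strongest was 0.083 under median scaling. The cause was not tested. A level under that of 1 read rests on few reads.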
